A study of Mus musculus with 1 sample.

Results

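The platelet-derived growth factor (PDGF) family was measured here as 6 genes, the ligand genes *Pdgfa*, *Pdgfb*, *Pdgfc* and *Pdgfd* and the receptor genes *Pdgfra* and *Pdgfrb*, of the 32285 genes listed for the library. The genes were taken by symbol, each matched 1 row, and all 6 were detected. PDGF ligands are secreted dimers that bring receptor tyrosine kinases together at the surface of mesenchymal cells. The products of *Pdgfa* and *Pdgfb* are made active inside the cell by proprotein convertases, whereas those of *Pdgfc* and *Pdgfd* are released with an extra domain that an extracellular protease removes. In many tissues *Pdgfb* from endothelium acts on *Pdgfrb* of the mural cells that wrap vessels, and *Pdgfra* is a widely used marker of fibroblasts.

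The data were 1 single-cell RNA sequencing library of pancreas from mice of the *Scap* f/f genotype aged 2 weeks. In these mice the floxed gene is intact because no Cre recombinase is present, so the library stands for pancreas with normal *Scap*. According to the methods, pancreata of 5 to 6 mice, males and females, were pooled, so animals could not be told apart and there was no replicate. The Scap-deleted library was not analysed here, and the comparisons below are between cell classes of this library. No test across samples could be made, and every interval below is a 95% interval that covers counting error only.

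Of 11789 barcodes, none listed more than 1 time, 10947 passed limits on unique molecular identifiers (UMIs, 1 per captured RNA molecule), above 800 and below 100000, and on the mitochondrial share, below 15%. They held a median of 2650 UMIs. Each barcode was given a class from lists of marker genes that held no PDGF gene: a class needed at least 3 of its 8 markers and no more than 2 of any other lineage. Pericytes and smooth muscle cells counted as 1 lineage, mural cells, and were split by which list had more markers. These 2 classes therefore do not exclude each other's markers, and each carried a median of 2 markers of the other list. These rules named 8466 barcodes (77.3%), while 1737 (15.9%) carried markers of at least 2 lineages and 744 (6.80%) stayed without a class. The classes used most were 5326 fibroblasts, 51 pericytes, 90 smooth muscle cells, 147 endothelial cells, 170 mesothelial cells, 55 Schwann cells, 45 duct cells, 797 acinar cells and 890 T and NK cells. All 8 markers were seen in each of the pericyte, smooth muscle, endothelial, Schwann, duct and fibroblast classes. This is no check of the classes, which were chosen on these markers, and all 8 fibroblast markers were also seen in T and NK cells. Of the 51 pericytes 9 had just enough markers, as had 12 of the 90 smooth muscle cells, while 17 and 24 unnamed barcodes were 1 marker short of these names. RNA of acinar cells was found in every class: the acinar enzyme gene *Ctrb1* stood at 96616 CPM (UMIs of the gene per 1000000 UMIs of the class) in acinar cells and at 1795 CPM in fibroblasts.

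Of the PDGF genes, 5 lie on mouse genome build GRCm38 (mm10) at chr5:75152292-75198215 for *Pdgfra*, chr5:138976014-138997370 for *Pdgfa*, chr15:79995874-80014977 for *Pdgfb*, chr3:81036416-81214040 for *Pdgfc* and chr9:6168584-6378850 for *Pdgfd*. *Pdgfa* and *Pdgfb* are on the minus strand and the other 3 on the plus strand. Transcripts on the opposite strand overlap *Pdgfa*, *Pdgfb*, *Pdgfc*, *Pdgfd* and *Pdgfra*, and the counted ones held 3 to 103 UMIs each. The 250 bases before the annotated RefSeq start of *Pdgfra*, the receptor gene highest in fibroblasts, and of *Pdgfc* and *Pdgfd*, both highest in duct cells, are given 5′ to 3′ from GRCm38.p6.
*Pdgfra* upstream window, chr5:75152001-75152250, plus strand: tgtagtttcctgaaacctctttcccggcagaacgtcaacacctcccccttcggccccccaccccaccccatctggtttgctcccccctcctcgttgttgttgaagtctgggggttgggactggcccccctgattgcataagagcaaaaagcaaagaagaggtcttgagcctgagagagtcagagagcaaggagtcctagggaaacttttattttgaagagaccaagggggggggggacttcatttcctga
*Pdgfc* upstream window, chr3:81036166-81036415, plus strand: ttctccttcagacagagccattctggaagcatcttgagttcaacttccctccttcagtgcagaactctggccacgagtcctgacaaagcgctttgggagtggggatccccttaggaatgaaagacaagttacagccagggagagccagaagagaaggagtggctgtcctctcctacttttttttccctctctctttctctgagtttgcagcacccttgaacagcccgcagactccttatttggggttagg
*Pdgfd* upstream window, chr9:6168236-6168485, plus strand: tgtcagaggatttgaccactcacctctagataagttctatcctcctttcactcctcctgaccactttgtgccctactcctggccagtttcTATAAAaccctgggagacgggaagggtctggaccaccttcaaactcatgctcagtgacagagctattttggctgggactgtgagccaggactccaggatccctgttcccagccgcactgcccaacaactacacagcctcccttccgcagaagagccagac
Capitals mark a match of TATAAA, which was searched on both strands with GGGCGG and CCAAT, and the 1 match overlapped no match of the others. The *Pdgfd* window held 1 TATAAA, and 12.4% of the 32851 RefSeq windows of this length held at least 1. The *Pdgfra* and *Pdgfc* windows held none of the 3 motifs, of which GGGCGG was in 32.7% and CCAAT in 33.8% of all windows. The GC content of the windows was 54.4% for *Pdgfra*, 50.8% for *Pdgfc* and 53.6% for *Pdgfd*, beside a median of 52.4% over all windows. A match of letters is a description of the window and not evidence of a bound factor.

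*Pdgfra*, whose product binds the ligands of *Pdgfa*, *Pdgfb* and *Pdgfc*, was by far highest in fibroblasts. It stood at 407 CPM (398 to 416, 7402 UMIs), and fibroblasts held 82.1% of its UMIs in the library. The next classes were pericytes at 50.4 CPM (18.5 to 110, 6 UMIs), mesothelial cells at 42.5 CPM (27.7 to 62.2, 26 UMIs), endothelial cells at 31.6 CPM (20 to 47.3, 23 UMIs) and smooth muscle cells at 26.1 CPM (12.5 to 47.9, 10 UMIs), and neighbours in this order did not differ beyond counting error. The level in fibroblasts was 8.07 times that in pericytes (3.71 to 22.0), 15.6 times that in smooth muscle cells (8.48 to 32.6) and 31.7 times that in T and NK cells (21.9 to 47.7), where it was 12.8 CPM. The fibroblast level thus stood apart from every other class. Among the others, pericytes were 3.93 times T and NK cells (1.33 to 9.66), mesothelial cells 3.31 times (1.86 to 5.85) and endothelial cells 2.46 times (1.35 to 4.42), and duct cells were at 4.85 CPM (5 UMIs). Smooth muscle cells, at 2.03 times (0.880 to 4.30), did not differ from T and NK cells beyond counting error.

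Because free RNA from broken cells enters all droplets, the low levels were set beside those of the 8 fibroblast markers as a percentage of the fibroblast level. In T and NK cells, which should lack them, *Pdgfra* was at 3.16% and the markers ran from *Col1a2* at 1.97% to *Fbln1* at 5.56%. In pericytes *Pdgfra* was at 12.4%, within the range of the markers, from *Lum* at 5.78% to *Col3a1* at 20.2%. In smooth muscle cells it was at 6.41%, between *Lum* at 4.69% and *Col1a2* at 12.5%. The markers were not in 1 ratio: in pericytes *Lum*, *Fbln1*, *Dcn* and *Serpinf1* were at up to 7.56%. There *Dpt* and the 3 collagen genes were at 13.4% or more. Fibroblasts were chosen on these 8 markers, and the other classes could count no more than 2 of them, whereas *Pdgfra* was in no list. The class rule thus bears on the marker ranges and not on *Pdgfra*, and the comparison is a description only. The 8 markers together were at 1538 CPM in T and NK cells, 3088 CPM in endothelial cells and 20265 CPM in mesothelial cells. How much of the *Pdgfra* of mural, endothelial and mesothelial cells was RNA of fibroblasts was not tested. A UMI of *Pdgfra* was seen in 63.5% of fibroblasts at a median of 2681 UMIs, in 7.84% of pericytes at 1566 UMIs, in 6.67% of smooth muscle cells at 2465 UMIs and in 2.36% of T and NK cells at 1794 UMIs, and after each cell was thinned to 800 UMIs in 27.7%, 1.96%, 1.11% and 0.674%.

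*Pdgfrb*, whose product binds the ligands of *Pdgfb* and *Pdgfd*, was highest in pericytes and lower in fibroblasts than in both mural classes. The gene lies on the plus strand at chr18:61045150-61085061. Its level was 815 CPM in pericytes (661 to 994, 97 UMIs), 266 CPM in smooth muscle cells (217 to 323, 102 UMIs) and 50.1 CPM in fibroblasts (46.9 to 53.5, 912 UMIs). Each step was larger than counting error: pericytes were 3.07 times smooth muscle cells (2.30 to 4.09), and smooth muscle cells 5.30 times fibroblasts (4.28 to 6.51). Endothelial cells followed at 20.6 CPM (11.5 to 33.9, 15 UMIs), and T and NK cells were at 4.59 CPM (2.20 to 8.44, 10 UMIs), so fibroblasts stood 10.9 times above T and NK cells (5.92 to 22.9). Among 17 barcodes with as many pericyte as smooth muscle markers the level was 608 CPM (419 to 854, 33 UMIs).

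The *Pdgfrb* of fibroblasts was set beside the 8 pericyte markers in the same way. As a percentage of the pericyte level, fibroblasts held 6.15% for *Pdgfrb*, and the markers ran from *Higd1b* at 0.243% and *Rgs5* at 0.429% to *Abcc9* at 5.56% and *Vtn* at 6.87%. The markers together stood at 140.3 CPM in fibroblasts, 24.3 CPM in T and NK cells and 7707 CPM in pericytes. The markers were thus not in 1 ratio in fibroblasts, and *Pdgfrb* lay inside their range, near its upper end. Pericytes were chosen on these markers, and fibroblasts could count no more than 2 of them, whereas *Pdgfrb* was in no list. The class rule thus bears on the marker range and not on *Pdgfrb*, and the comparison is a description only. In T and NK cells *Pdgfrb* was at 0.563%. Since fibroblasts were many, they held 40.0% of all *Pdgfrb* UMIs in the library, while the pericytes held 4.26% and the smooth muscle cells 4.48%. These 2 classes do not hold all barcodes with mural markers. Of the 2279 *Pdgfrb* UMIs, 493 lay in barcodes with endothelial and mural markers and 113 in those with fibroblast and mural markers, against 912 in fibroblasts. A UMI of *Pdgfrb* was seen in 84.3% of pericytes, 52.2% of smooth muscle cells, 14.9% of fibroblasts and 1.12% of T and NK cells, and after thinning in 62.7%, 24.4%, 4.54% and 0.225%. *Pdgfra* UMIs per *Pdgfrb* UMI were 8.12 in fibroblasts, 0.0980 in smooth muscle cells and 0.0619 in pericytes, a quotient that is compared only between classes, since the genes differ in length and capture. Markers counted only at a level 2 times higher in the barcode, a choice made after seeing the data, gave 472 CPM of *Pdgfrb* and 131 CPM of *Pdgfra* in pericytes and 122 CPM of *Pdgfra* in smooth muscle cells, and the order of the 3 classes was as before for both genes. With classes taken from clusters, no cluster was named for pericytes, and into which clusters they fell was not examined. The smooth muscle class then had 403 CPM of *Pdgfrb* and 59.8 CPM of *Pdgfra*. With an upper limit of 10000 UMIs *Pdgfra* was 53.4 CPM in smooth muscle cells and 77.9 CPM in pericytes. With 1 more marker needed for a class, *Pdgfra* in smooth muscle cells was 14.1 CPM.

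**Figure D1:**
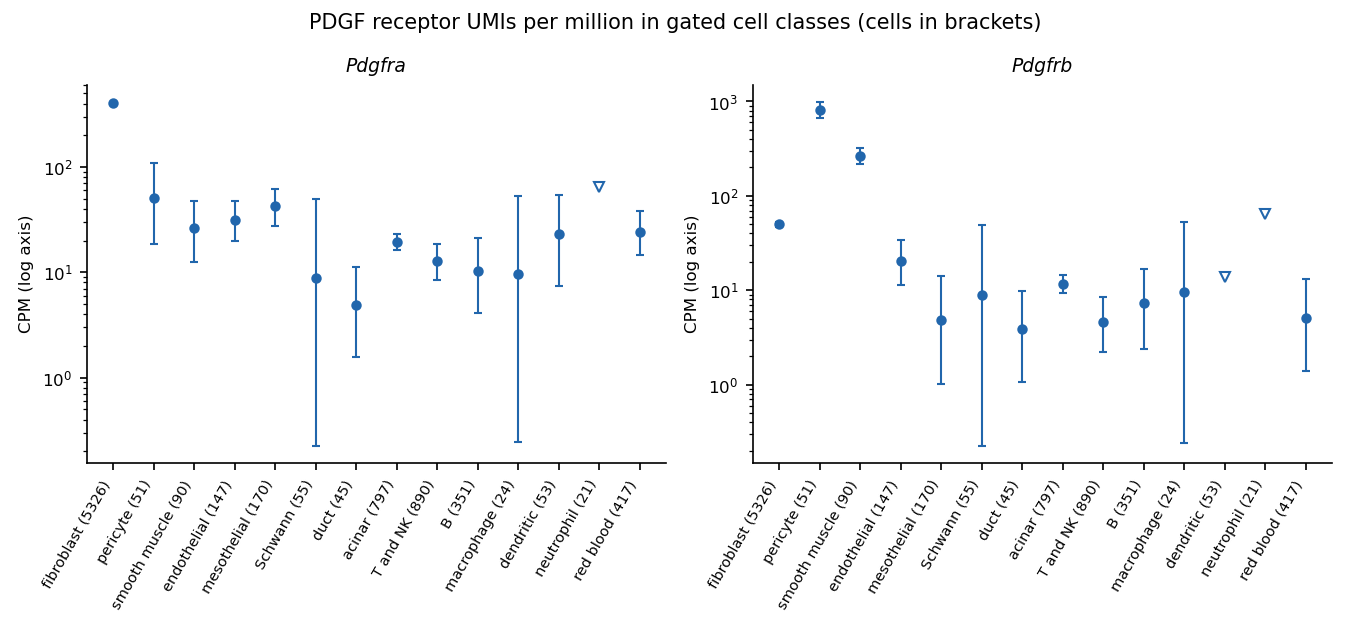
Levels of *Pdgfra* and *Pdgfrb* as UMIs per 1000000 (CPM, log axis) in 14 gated classes of at least 20 cells, with the number of cells in brackets. Points are the summed level, bars the exact 95% Poisson interval and open triangles the limit that 3 counts would set where no UMI was seen. *Pdgfra* is highest in fibroblasts at 407 CPM and *Pdgfrb* in pericytes at 815 CPM.

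Both receptors were next read in the same cells. Of the 5326 fibroblasts, 563 (10.6%, 9.76 to 11.4) had UMIs of both, 2821 of *Pdgfra* only, 233 of *Pdgfrb* only and 1709 of neither. Of the 51 pericytes, 4 had both, 39 had *Pdgfrb* only, 8 had neither and 0 had *Pdgfra* only, which allows a share of up to 5.88%. Of the 90 smooth muscle cells, 2 had both, 45 had *Pdgfrb* only, 4 had *Pdgfra* only and 39 had neither. Fibroblasts with both were thus few beside those with *Pdgfra* alone, and mural cells with a receptor had mostly *Pdgfrb* alone.

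Co-detection moved with depth. Fibroblasts with both receptors held a median of 4105 UMIs and those with neither 2047, and at 800 UMIs a cell the share with both was 1.24% (0.960 to 1.57). *Pdgfrb* was seen in 16.6% of fibroblasts with *Pdgfra* and 12.0% of the others with all UMIs, but in 4.47% (3.47 to 5.65) and 4.57% (3.93 to 5.28) at 800 UMIs. The *Pdgfrb* level was 48.8 CPM in fibroblasts with a UMI of *Pdgfra* and 53.8 CPM in those without, a ratio of 0.907 (0.785 to 1.05). So among fibroblasts the level of *Pdgfrb* did not differ beyond counting error with the detection of *Pdgfra*. Scrublet, which scores barcodes against artificial doublets, marked 3 of the 563 fibroblasts with both receptors (0.533%) and 1.56% of all fibroblasts. In the 170 barcodes with both fibroblast and mural markers, 39 (22.9%, 16.9 to 30.0) had both receptors, with *Pdgfra* at 311 CPM and *Pdgfrb* at 128 CPM. A further 79 had *Pdgfra* only, 23 had *Pdgfrb* only and 29 had neither.

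**Figure D2:**
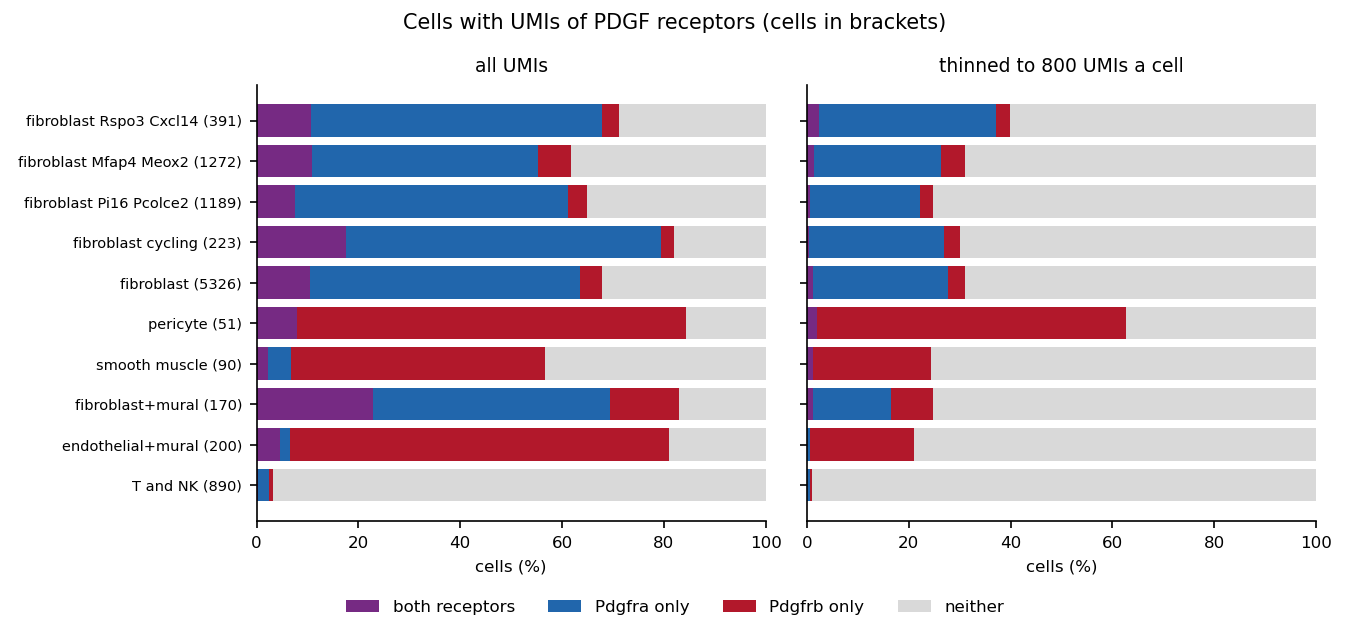
Percentage of cells with UMIs of both receptors, of *Pdgfra* only, of *Pdgfrb* only and of neither, in fibroblast subsets, all fibroblasts, mural classes, barcodes with markers of 2 lineages, and T and NK cells, with the number of cells in brackets. The left panel uses all UMIs and the right panel each cell thinned to 800 UMIs, where the share of fibroblasts with both falls from 10.6% to 1.24%.

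The fibroblasts were divided by further markers, with cycling cells set apart first. The 223 cycling fibroblasts had at least 2 cycling markers and could carry any of the other lists. Of the rest, the 391 *Rspo3* *Cxcl14*, the 1272 *Mfap4* *Meox2* and the 1189 *Pi16* *Pcolce2* fibroblasts carried 1 list each, while 1488 carried several lists and 763 none. *Pdgfra* was detected in all of them and varied less than 2-fold. It was 529.9 CPM (488 to 575) in the *Rspo3* *Cxcl14* subset, 410.2 CPM (376 to 447) in cycling cells, 386 CPM (366 to 407) in the *Mfap4* *Meox2* subset and 325 CPM (308 to 342) in the *Pi16* *Pcolce2* subset. The *Rspo3* *Cxcl14* level was 1.63 times the *Pi16* *Pcolce2* level (1.48 to 1.80).

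*Pdgfrb* took another order. It was 74.2 CPM (65.5 to 83.9, 258 UMIs) in the *Mfap4* *Meox2* subset, 55.9 CPM (42.8 to 71.6, 62 UMIs) in the *Rspo3* *Cxcl14* subset, 41.4 CPM (30.9 to 54.3, 52 UMIs) in cycling cells and 33.0 CPM (27.9 to 38.8, 149 UMIs) in the *Pi16* *Pcolce2* subset. The *Mfap4* *Meox2* level was 2.25 times the *Pi16* *Pcolce2* level (1.83 to 2.77) and 1.33 times the *Rspo3* *Cxcl14* level (1.00 to 1.78). The summed level of the 8 pericyte markers moved the same way, at 281 CPM in the *Mfap4* *Meox2*, 160 CPM in the *Rspo3* *Cxcl14* and 60.05 CPM in the *Pi16* *Pcolce2* subset, against 7707 CPM in pericytes, and that of the 8 smooth muscle markers was 220 CPM, 97.3 CPM and 110.3 CPM. Their part in the *Pdgfrb* difference was not tested, nor in the *Pdgfa* difference given next. Both receptors were seen in 138 *Mfap4* *Meox2* cells (10.8%, 9.19 to 12.7), 42 *Rspo3* *Cxcl14* cells (10.7%, 7.85 to 14.2), 89 *Pi16* *Pcolce2* cells (7.49%, 6.05 to 9.13) and 39 cycling cells (17.5%, 12.7 to 23.1), and at 800 UMIs a cell in 1.42%, 2.30%, 0.673% and 0.448%. The cycling cells were deepest, at a median of 4139 UMIs, and their thinned share rested on 1 cell of 223 (0.0114 to 2.47), an interval that covers the thinned shares of the other 3 subsets.

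The ligands also differed between the subsets. *Pdgfa* was 29.9 CPM (24.5 to 36.3, 104 UMIs) in the *Mfap4* *Meox2* subset, 6.14 times the 4.87 CPM of the *Pi16* *Pcolce2* subset (3.85 to 10.2) and 2.77 times the 10.8 CPM of the *Rspo3* *Cxcl14* subset (1.52 to 5.53). *Pdgfc* was 13.7 CPM (10.5 to 17.6, 62 UMIs) in the *Pi16* *Pcolce2* subset, 2.81 times that in the *Mfap4* *Meox2* subset (1.62 to 5.12). *Pdgfd* was 107 CPM (97.9 to 117, 484 UMIs) in the *Pi16* *Pcolce2* subset, 84.0 CPM in the *Mfap4* *Meox2* subset and 38.8 CPM in the *Rspo3* *Cxcl14* subset, and each pair differed beyond counting error. *Mfap4* *Meox2* fibroblasts therefore had most *Pdgfa* and *Pdgfrb* of the 3, *Pi16* *Pcolce2* fibroblasts had more *Pdgfc* and *Pdgfd* than *Mfap4* *Meox2* fibroblasts, and *Rspo3* *Cxcl14* fibroblasts had most *Pdgfra* and least *Pdgfd* of the 3. The subsets were cut from counts of 1 or a few markers per cell and are ranges rather than cell types. *Pdgfb* was near absent, with 14 UMIs in 14 of all 5326 fibroblasts.

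**Figure D3:**
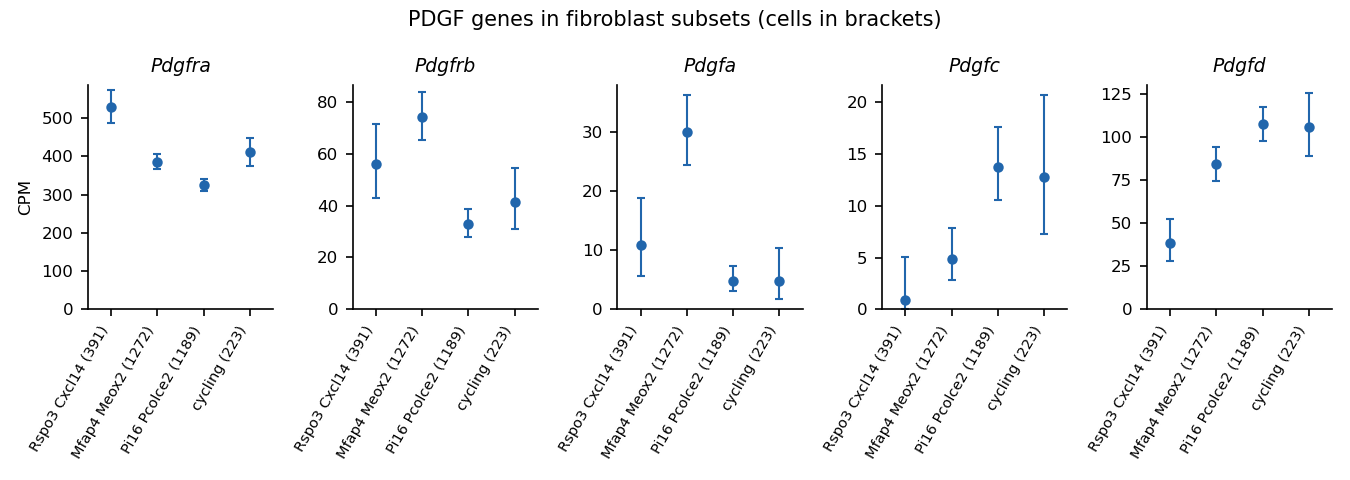
Levels of 5 PDGF genes as UMIs per 1000000 (CPM, linear axes from 0) in the 3 marker subsets of fibroblasts and in cycling fibroblasts, with the number of cells in brackets and exact 95% Poisson intervals as bars. *Pdgfra* is highest in the *Rspo3* *Cxcl14* subset at 529.9 CPM, *Pdgfrb* and *Pdgfa* in the *Mfap4* *Meox2* subset at 74.2 and 29.9 CPM, and *Pdgfd* is lowest in the *Rspo3* *Cxcl14* subset at 38.8 CPM.

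*Pdgfa*, the ligand gene whose homodimer acts on *Pdgfra*, was highest in Schwann cells and low in fibroblasts. It stood at 575 CPM in Schwann cells (444 to 733, 65 UMIs in 30 of 55 cells), at 219 CPM in smooth muscle cells (175 to 271, 84 UMIs), at 219 CPM in pericytes (143 to 320.2, 26 UMIs) and at 158 CPM in duct cells (135 to 184, 163 UMIs). Schwann cells were 2.63 times smooth muscle cells (1.87 to 3.68), while smooth muscle cells did not differ from pericytes, nor pericytes from duct cells, beyond counting error. Duct cells were 2.15 times mesothelial cells (1.54 to 3.06). Mesothelial cells were at 73.5 CPM (45 UMIs), acinar cells at 47.1 CPM (42.1 to 52.6, 317 UMIs), endothelial cells at 38.4 CPM (28 UMIs) and fibroblasts at 12.1 CPM (10.5 to 13.8, 220 UMIs). The mural classes were thus 18.1 times above fibroblasts, both for smooth muscle cells (13.9 to 23.4) and for pericytes (11.5 to 27.2).

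Acinar cells, the enzyme-secreting cells of the pancreas, held 14.9% of the *Pdgfa* UMIs of the library. Their level was 12.8 times that of T and NK cells (6.44 to 30.0), which had 8 UMIs. It was 55.6 CPM in the 173 acinar cells with at least 10000 UMIs and 31.8 CPM in the 624 with fewer, a ratio of 1.75 (1.34 to 2.29). In endothelial cells *Pdgfa* was uneven: 24 of the 28 UMIs lay in 11 cells, with a median of 9894 UMIs, that carried both arterial and lymphatic markers, and 5 cells held 75.0%. In the mural classes the ligand was seen in cells that also had *Pdgfrb*, in 27 of 90 smooth muscle cells (30.0%, 20.8 to 40.6) and 17 of 51 pericytes (33.3%, 20.8 to 47.9), and at 800 UMIs a cell in 4 of 90 (4.44%) and 4 of 51 (7.84%). With all UMIs, *Pdgfa* was seen in 39 smooth muscle cells and 20 pericytes, and *Pdgfrb* in 47 and 43.

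*Pdgfb*, the ligand gene that acts on both receptors, was at 274 CPM in Schwann cells (186 to 389, 31 UMIs in 18 cells) and 230.5 CPM in endothelial cells (197 to 268, 168 UMIs in 66 of 147 cells), which did not differ beyond counting error (ratio 1.19, 0.784 to 1.75). Pericytes were at 75.6 CPM (34.6 to 144, 9 UMIs) and smooth muscle cells at 44.3 CPM (25.8 to 71.0, 17 UMIs), 3.05 times (1.57 to 6.78) and 5.20 times (3.15 to 9.14) below endothelial cells. Fibroblasts were lowest among the classes with a UMI, at 0.770 CPM (0.421 to 1.29), so endothelial cells were 299 times above them (174 to 560). No UMI was seen in mesothelial cells, which allows up to 4.90 CPM, nor in B cells, macrophages, neutrophils or red blood cells.

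Within the endothelium *Pdgfb* and *Pdgfd* were higher in cells with arterial but not lymphatic markers than in cells with neither. In 60 endothelial cells with at least 2 arterial and fewer than 2 lymphatic markers *Pdgfb* was 385 CPM (313 to 468, 101 UMIs). In 73 with fewer than 2 of each list it was 187 CPM (137 to 248, 47 UMIs), a ratio of 2.06 (1.44 to 2.98). *Pdgfd* was 381 CPM (310.0 to 463, 100 UMIs) and 183 CPM (134 to 244, 46 UMIs), a ratio of 2.08 (1.46 to 3.02). Both ligand genes were about 2 times higher in the 60 cells, and 5 of these cells held 40.6% of their *Pdgfb* UMIs. The summed level of the pericyte markers was also higher in the 60 cells, at 362 CPM against 238 CPM, and its part in the difference was not tested. Cells with at least 2 lymphatic markers, some of which also carried arterial markers, were left out. The ratios thus do not cover all endothelial cells with arterial markers. With an upper limit of 10000 UMIs, *Pdgfb* in all endothelial cells was 289 CPM.

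The largest part of *Pdgfb* lay in barcodes with markers of both endothelium and mural cells. These 200 barcodes held 49.1% of the *Pdgfb* UMIs of the library, at 319 CPM (294 to 346, 580 UMIs), together with 271 CPM of *Pdgfrb* (248 to 297, 493 UMIs), 254 CPM of *Pdgfd* (231 to 278, 461 UMIs) and 128 CPM of *Pdgfa* (112 to 146, 233 UMIs). Their median depth was 7001 UMIs, against 2882 in endothelial cells and 1566 in pericytes. A barcode held a median of 31 UMIs of the 8 endothelial, 28 of the 8 pericyte and 5 of the 8 smooth muscle markers. A ligand gene and its receptor gene were thus often found in 1 barcode. *Pdgfb* and *Pdgfrb* were both seen in 126 barcodes (63.0%, 55.9 to 69.7), against 4 of 147 endothelial cells (2.72%, 0.746 to 6.82) and 7 of 51 pericytes (13.7%, 5.70 to 26.3). Each gene was common by itself in the 200 barcodes, *Pdgfb* in 151 and *Pdgfrb* in 158. In pericytes *Pdgfb* was seen in 8 cells and *Pdgfrb* in 43. Whether the genes were found together more often than their own detection gives was not tested.

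At 800 UMIs a barcode, 13 of the 200 had both *Pdgfb* and *Pdgfrb* (6.50%, 3.51 to 10.9), and 0 of 147 endothelial cells did, which allows up to 2.04%. Scrublet marked 6 of the 200 (3%), beside 4.91% of all kept barcodes. Whether such a barcode stands for 1 cell or for cells that stayed together was not tested. *Pdgfb* was 323 CPM (292 to 355) in the 140 of these barcodes with arterial but not lymphatic markers and 195 CPM (146 to 255) in the 47 with neither list. The ratio was 1.66 (1.24 to 2.25), the same direction as in the endothelial cells divided in this way.

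**Figure D4:**
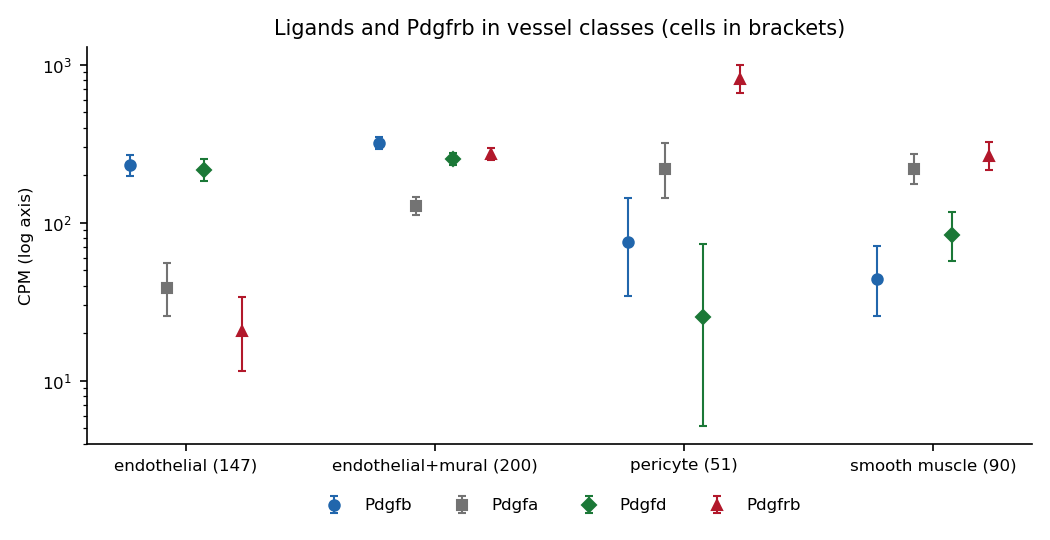
Levels of *Pdgfb*, *Pdgfa*, *Pdgfd* and *Pdgfrb* as UMIs per 1000000 (CPM, log axis) in endothelial cells, barcodes with endothelial and mural markers, pericytes and smooth muscle cells, with the number of cells in brackets and exact 95% Poisson intervals as bars; a gene is compared between classes, not with another gene. *Pdgfb* falls from 230.5 CPM in endothelial cells to 75.6 CPM in pericytes, *Pdgfrb* rises from 20.6 to 815 CPM, and the barcodes with both sets of markers hold 319 and 271 CPM.

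*Pdgfc*, a ligand gene whose product is cut by tissue plasminogen activator before it can act on *Pdgfra*, had its highest level in duct cells. The 45 duct cells held 38.4% of its UMIs, at 273 CPM (242 to 306, 281 UMIs), and 30 of them had at least 1 UMI. The distribution was uneven, with up to 38 UMIs in 1 cell and 50.5% of the UMIs in 5 cells. Smooth muscle cells followed at 52.1 CPM (31.8 to 80.5, 20 UMIs in 17 cells) and macrophages at 47.9 CPM (15.5 to 112, 5 UMIs in 3 of 24 cells). Duct cells were 5.23 times smooth muscle cells (3.32 to 8.69) and 67.9 times acinar cells (45.7 to 105), which were at 4.01 CPM. Fibroblasts were at 7.09 CPM (5.92 to 8.43, 129 UMIs), and smooth muscle cells were 7.35 times above them (4.35 to 11.8). Pericytes had 1 UMI, at 8.40 CPM (0.213 to 46.8), an interval that overlaps that of smooth muscle cells. Schwann cells had none, which allows up to 26.5 CPM.

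*Pdgfd*, a ligand gene whose product acts on *Pdgfrb* after cleavage, was highest in the same duct cells. It stood at 503 CPM there (460.2 to 548, 518 UMIs in 38 of 45 cells), with 43.6% of the UMIs in 5 cells. Endothelial cells were at 215 CPM (183 to 252, 157 UMIs), mesothelial cells at 142 CPM (114 to 175, 87 UMIs), fibroblasts at 89.4 CPM (85.1 to 93.8, 1626 UMIs), smooth muscle cells at 83.4 CPM (57.1 to 118, 32 UMIs) and pericytes at 25.2 CPM (5.20 to 73.7, 3 UMIs). Duct cells were 2.33 times endothelial cells (1.95 to 2.81), endothelial cells 1.52 times mesothelial cells (1.16 to 1.99) and mesothelial cells 1.59 times fibroblasts (1.27 to 1.97). Each of these steps was larger than counting error, and fibroblasts and smooth muscle cells did not differ. By number fibroblasts held most of the gene, 38.8% of its UMIs. Schwann cells, highest for *Pdgfa*, had 1 UMI of *Pdgfd*, and acinar cells were at 11.6 CPM (78 UMIs).

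The duct cells were deep, at a median of 12676 UMIs, and held acinar RNA, with 6458 CPM of *Ctrb1*. With an upper limit of 10000 UMIs the barcodes were gated again, and 15 were named duct cells. This is fewer than the 20 cells set as a minimum for the order. In these 15 *Pdgfc* was 174 CPM (14 UMIs) and *Pdgfd* 633 CPM (51 UMIs). When classes were taken from clusters, the duct class had 154 cells, with 110.2 CPM of *Pdgfc* and 230.5 CPM of *Pdgfd*, and was still highest for both. In the 195 barcodes with acinar and duct markers, *Pdgfc* was 30.9 CPM (26.4 to 35.9, 168 UMIs), *Pdgfd* 69.9 CPM (63.0 to 77.2, 380 UMIs) and *Pdgfa* 68.9 CPM (62.1 to 76.3, 375 UMIs). These levels lay between those of acinar and duct cells for all 3 genes.

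**Figure D5:**
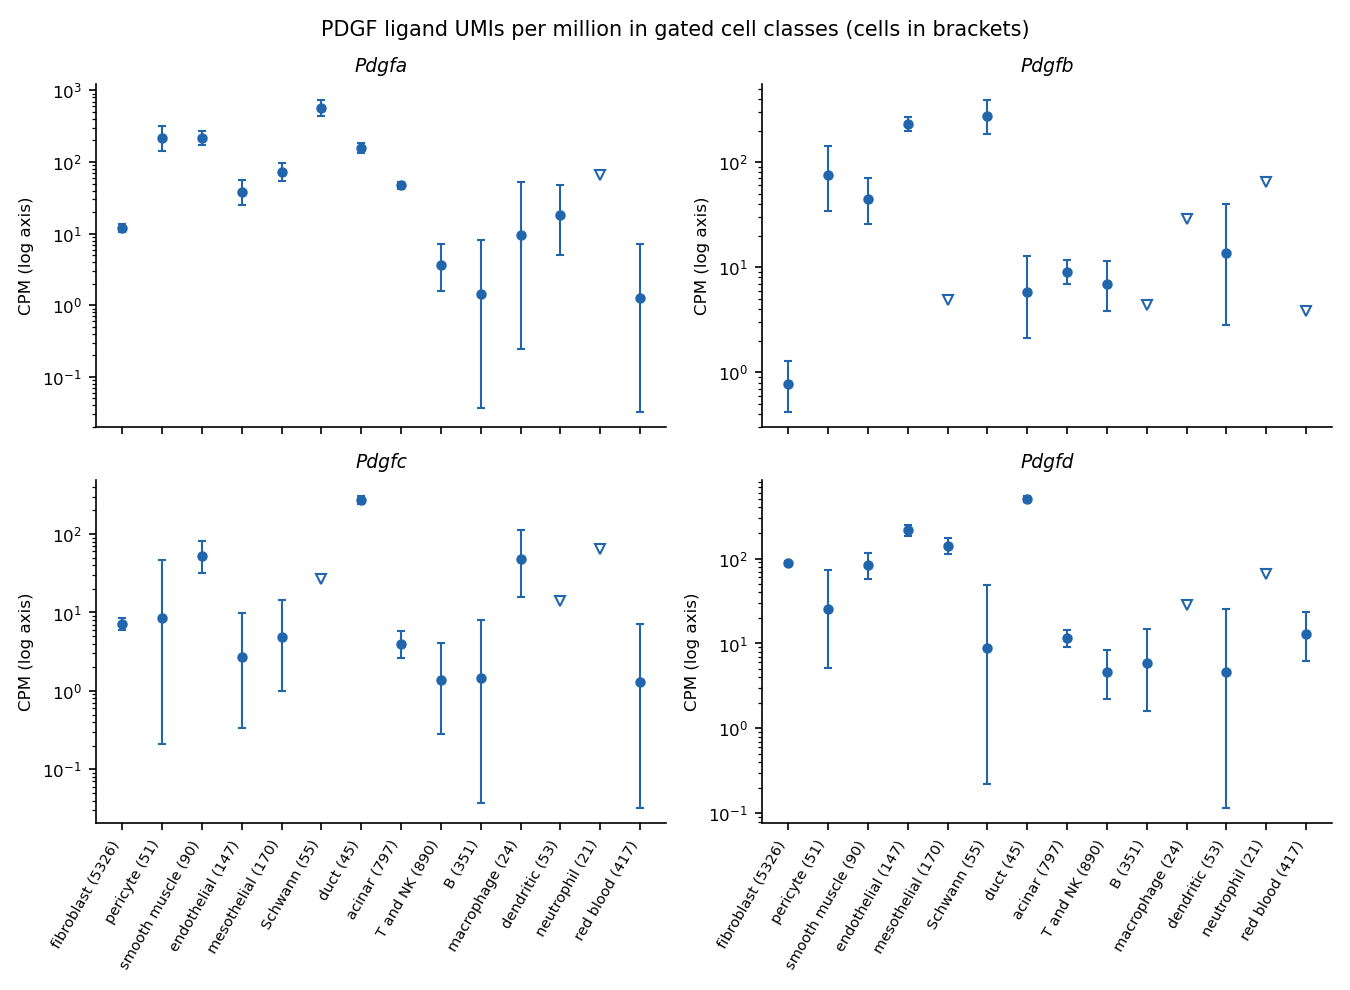
Levels of the 4 PDGF ligand genes as UMIs per 1000000 (CPM, log axes) in 14 gated classes of at least 20 cells, with the number of cells in brackets. Points are the summed level, bars the exact 95% Poisson interval and open triangles the limit that 3 counts would set where no UMI was seen. *Pdgfa* is highest in Schwann cells at 575 CPM, *Pdgfb* in Schwann and endothelial cells at 274 and 230.5 CPM, and *Pdgfc* and *Pdgfd* in duct cells at 273 and 503 CPM.

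The other genes of the pathway were taken from a list of 35 genes in 4 roles, and a gene was called past 2-fold between classes where the mean of its levels was at least 30 CPM. Of the 6 PDGF genes, 4 passed this filter for mural cells over fibroblasts, 4 for endothelial cells over fibroblasts and 3 for *Mfap4* *Meox2* over *Pi16* *Pcolce2* fibroblasts. In mural cells over fibroblasts, where 14.1% of 5510 genes were called higher and 11.6% lower, 1 of 30 list genes was higher, 7 were lower and the median ratio was 0.859, beside 1.09 over all genes tested. Among the binding proteins, *Lrp1*, an endocytic coreceptor of *Pdgfrb*, had a ratio of 0.384 (0.312 to 0.469), *Sparc*, a matrix protein that binds PDGF, 0.463 (0.441 to 0.487) and *Thbs1*, a matrix glycoprotein, 0.315 (0.275 to 0.361), so 3 of 5 were lower. Of 4 proteases, 3 were lower: *Pcsk6* at 0.0523 (0.0239 to 0.0994) and *Pcsk5* at 0.347 (0.239 to 0.489), both proprotein convertases, and *Plat*, which cuts the product of *Pdgfc*, at 0.195 (0.117 to 0.304). Of the adaptors and enzymes bound by the receptors 13 of 14 lay within 2-fold, among them *Stat3* at 1.32, *Pik3r1* at 0.839 and *Crk* at 0.975. These ratios pool the mural classes, which went opposite ways for *Pik3r1*: it was 378 CPM in pericytes (276 to 506) and 88.6 CPM in smooth muscle cells (61.4 to 124), against 191 CPM in fibroblasts. The exception, named after its value was seen, was *Nck2*, an adaptor, at 3.25 (2.11 to 4.84). Of 7 attenuators, which end receptor signals, 6 lay within 2-fold, with *Socs3* at 0.591, *Cblb* at 0.963 and *Ptprj* at 0.727, and *Socs1*, also named after its value was seen, was at 0.349 (0.180 to 0.612).

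In endothelial cells over fibroblasts, 18.8% of 5730 genes were called higher and 11.4% lower. Of 29 list genes 6 were higher and 8 lower, with a median ratio of 1.19 beside 1.22 over all genes tested. Of the binding proteins, *Lrp1* at 0.0742, *Thbs1* at 0.174 and *Sparc* at 0.391 were lower again and *Nrp1*, a coreceptor named after its value was seen, was higher at 2.36 (2.11 to 2.63). Of the proteases, *Pcsk6* at 0.244 and *Plat* at 0.368 were lower, while *Pcsk5* was at 0.555. Among the adaptors 4 of 14 were higher and none lower, with *Stat3* at 1.49, *Pik3r1* at 0.669 and *Crk* at 1.54 within 2-fold. The 4, named after their values were seen, were *Plcg1* at 4.99, *Nck2* at 5.06, *Rasa1* at 2.75 and *Nck1* at 2.61. Among the attenuators *Socs3* at 0.421 and *Ptprj* at 0.400 were lower and *Cblb* was at 1.19. Named after their values were seen, *Socs1* was also lower at 0.444 (0.270 to 0.690) and *Ptpn12*, a phosphatase, was higher at 3.14 (2.71 to 3.62).

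In *Mfap4* *Meox2* over *Pi16* *Pcolce2* fibroblasts, 4.4% of 5094 genes were called higher and 5.26% lower. Of 29 list genes 3 were higher and 3 lower, with a median ratio of 0.909 beside 1.01 over all genes tested. *Pik3r1*, the regulatory subunit of the lipid kinase recruited by PDGF receptors, was higher at 2.21 (1.96 to 2.49), as were *Nrp1* at 3.61 (3.22 to 4.06) and *Pdgfrl* at 5.95 (4.57 to 7.83), both named after their values were seen. *Pcsk6* was lower at 0.1502 (0.133 to 0.169), *Plat* at 0.298 (0.263 to 0.338) and *Ptprj*, a receptor phosphatase, at 0.314 (0.254 to 0.386). *Pcsk6* and *Plat* were thus lower in the *Mfap4* *Meox2* subset, where *Pdgfrb* was higher. *Pdgfa*, at 29.9 CPM there against 4.87 CPM, did not pass the filter on the mean level. No link between these genes was tested.

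Last, the genes whose pattern was most like that of each member were listed by Pearson's r of log2(CPM + 10) over the 11 classes of at least 50 cells, among 11894 genes that were neither members nor markers. These classes came from 1 library, share its free RNA and did not include duct cells, so r is a description only. For *Pdgfra* they were *Scara5*, *Tspan11*, *Cdkn1c*, *Arsi* and *Htra3*, with r from 0.975 to 0.957, all highest in fibroblasts. For *Pdgfrb* they were *Enpep*, *Kcne4*, *Gucy1a2*, *Sema5b* and *Msi1*, with r from 0.976 to 0.965, all highest in pericytes. Pericytes are a small class and no interval was taken for these genes. *Enpep* was closest, at 50.4 CPM in pericytes and 41.7 CPM in the next class. For *Pdgfa* they were *Dbndd2*, *Ick*, *Fzd3*, *Syn3* and *Plce1* (0.917 to 0.912), for *Pdgfb* *Lrp5*, *Prex2*, *Hbegf*, *Mex3a* and *Sox13* (0.921 to 0.875), for *Pdgfc* *Inhba*, *Kcnma1*, *Pgf*, *Bmp2* and *Mustn1* (0.976 to 0.951) and for *Pdgfd* *Arhgap29*, *Apbb1*, *Zfpm2*, *Mindy4* and *Fn1* (0.965 to 0.938). The genes like *Pdgfc* were all highest in smooth muscle cells. Between members, r was highest for *Pdgfa* with *Pdgfb* at 0.722 and for *Pdgfc* with *Pdgfrb* at 0.714, and it was 0.343 for *Pdgfra* with *Pdgfrb*.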

How the data were processed

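The authors deposited raw UMI counts, whole numbers for every gene in every barcode, of 1 pooled 3′ v3.1 droplet library, made with Cell Ranger 7.1.0 on mm10 per the submitters' notes. The lowest barcode held 500 UMIs, so the cell limits given in the study's methods had not been applied. The methods name a step that removes ambient RNA, no trace of which was found in the counts, and it was not run here. Barcodes passed above 800 and below 100000 UMIs if mitochondrial genes gave less than 15%. The study's methods give the same lower and mitochondrial limits but an upper limit of 10000 UMIs, which is used here only as an alternative. Of the kept barcodes, 818 were above it. A marker counted in a barcode with at least 1 UMI and a share of UMIs not under its share in the library. This rule was set after seeing the data, and the members, markers and lists were chosen with earlier results of these data known.

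A gene's level in a class is its summed UMIs over the summed UMIs of all genes (CPM), with an exact Poisson interval. Shares have exact Clopper-Pearson intervals, ratios exact conditional ones, all at 95%, and a count of 0 was given the limit of 3 counts. For detection at equal depth each cell was thinned to 800 UMIs, and none was shallower. Levels were compared within a gene between classes.

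Named genes were the 6 members in every class, the 5 genes most alike for each member with at least 200 UMIs, and in each role of the pathway list the 3 with most UMIs. Scrublet, as built into scanpy 1.11.5, was run with a doublet rate of 0.08 (threshold 0.258) and marked 537 barcodes (4.91%), which were left out in 1 alternative only. Another alternative took classes from 33 Leiden clusters (2000 variable genes without the members, 30 components, 20 neighbours, resolution 1.5). The rest changed the UMI and mitochondrial limits, the markers needed, the scale and the denominator. Python 3.11.15, numpy 2.4.6, scipy 1.17.1 and pandas 2.3.3 were used, and the functions for intervals, ratios and thinning were tested on simulated data. Gene positions are from GENCODE M21 and upstream windows from RefSeq. *Pdgfrb* was not looked up among these windows, and *Pdgfb* had no entry. Windows that overlap annotated exons are not printed.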

Additional observations from a re-analysis of the deposited data

How the results depend on the processing

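Of 96 repeated values under 10 alternatives, 75 stayed within the 95% interval of the value given and 21 moved. *Pdgfrb* was higher in pericytes than in smooth muscle cells and fibroblasts, and *Pdgfra* higher in fibroblasts than in both, in 8 of 9 alternatives that change levels; the ninth, classes from clusters, gave no pericyte class. Schwann cells were highest for *Pdgfa* in 9 of 9, and duct cells for *Pdgfc* and *Pdgfd* in 8 of 9. With an upper limit of 10000 UMIs and the gates run again, *Pdgfra* in smooth muscle cells was 53.4 CPM (14.1 CPM with 1 more marker needed). *Pdgfb* in endothelial cells was 289 CPM under this limit. The highest classes with at least 20 cells were then macrophages for *Pdgfc* (53.3 CPM) and endothelial cells for *Pdgfd* (254 CPM), since only 15 barcodes were named duct cells. With classes from clusters, smooth muscle cells had 59.8 CPM of *Pdgfra* and 403 CPM of *Pdgfrb*, endothelial cells 274 CPM of *Pdgfb*, Schwann cells 428 CPM of *Pdgfa*, and duct cells 110.2 CPM of *Pdgfc* and 230.5 CPM of *Pdgfd*. Means of per-cell CPM were 432 for *Pdgfra* and 55.8 for *Pdgfrb* in fibroblasts and 1020.4 for *Pdgfrb* in pericytes. With markers counted only at 2 times their share of the library, which was chosen after seeing the data, *Pdgfra* was 396 CPM in fibroblasts, 131 CPM in pericytes and 122 CPM in smooth muscle cells, *Pdgfrb* 472 CPM in pericytes, *Pdgfc* 230.4 CPM and *Pdgfd* 430.0 CPM in duct cells. The share of fibroblasts with both receptors was 11.8% with a lower limit of 1500 UMIs and 1.24% after thinning to 800 UMIs. Apart from the 15 duct cells, which were too few to be ranked, the cause was not tested. Depth limits the low values of small classes: in pericytes 6 UMIs of *Pdgfra*, 3 of *Pdgfd* and 1 of *Pdgfc* came from 51 cells. No paired analysis was possible because there is 1 library.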
